A study of Mus musculus with 18 samples.

Results

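The hepatic carboxylesterases followed here are 10 genes, Ces1c, Ces1d, Ces1e, Ces1f, Ces1g, Ces2a, Ces2c, Ces2e, Ces3a and Ces3b, out of 21157 genes that the array names. They were taken by name, and every probe whose transcript accession belongs to 1 of them was read: 13 probes, of which 3 target Ces2c, 2 target Ces2e and 1 targets each of the others. All 13 probes lay well above background on every array, so the 10 genes are detected in every liver. Liver RNA of 18 male C57BL/6 mice was measured on 1-color Agilent arrays, 1 mouse per array. The LFD group (4 mice) ate a diet with 10% fat and the HFD group (4 mice) a diet with 60% fat, both from 6 weeks of age and without drug. The LFD MTX50 and HFD MTX50 groups (5 mice each) ate the same diets and, after 10 weeks, were injected intraperitoneally with methotrexate, an antifolate drug, at 50 mg/kg for 5 rounds. Livers were taken a week after the last round, and 50 mg/kg was the only dose on the arrays.

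Carboxylesterases are serine hydrolases of the endoplasmic reticulum that cut ester and amide bonds. In liver they activate or clear many drugs and hydrolyze acylglycerols and cholesteryl esters, which ties them to lipid droplet turnover and to the secretion of very low density lipoprotein (VLDL). In the mouse the family was multiplied into 3 main subfamilies whose genes lie in clusters on chromosome 8, and neighboring copies are so alike that a probe for 1 of them may also bind its neighbor.

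A level is given as the log2 intensity of the probe minus the 75th percentile of its array, so that a level of 0 equals that percentile and a difference of 1 is a 2-fold change. Where a gene has several probes it is read on the brightest, and the others follow separately. Differences between groups come from a limma model of the 4 groups and are given ± SE, with p-values adjusted over all probes kept. The threshold for calling a gene changed was an adjusted p of 0.05. Levels of different genes are not set against each other, since probes differ in brightness. In whole liver RNA, fewer cells of a type and less RNA per cell cannot be told apart.

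The arrays lay on 6 slides, which limits the comparisons. Slide 1 held all LFD mice, slide 2 held LFD MTX50 mice 1 to 4 and slide 3 held LFD MTX50 mouse 5. HFD mice 1 and 2 were on slide 4, HFD mice 3 and 4 shared slide 5 with HFD MTX50 mice 1 and 2, and HFD MTX50 mice 3 to 5 were on slide 6. Arrays of a slide correlated at 0.262 in the model with the slide as a random block. The 8 hepatocyte markers were above background on every array. The mean level of 5 neutrophil markers was -3.26 to -3.06 in LFD, -2.81 to -0.54 in LFD MTX50, -3.33 to -2.25 in HFD and -2.89 to 1.78 in HFD MTX50. For the 3 erythroid markers kept of 4, that mean was 1.12 to 1.43 in LFD, -1.73 to -0.98 in LFD MTX50, 0.96 to 1.51 in HFD and -1.20 to 2.38 in HFD MTX50. The 4 adipocyte markers had means of -4.45 to -3.87 in LFD, -4.37 to -3.61 in LFD MTX50, -2.34 to -1.82 in HFD and -4.02 to -2.86 in HFD MTX50. HFD thus stood above the other groups in this mean, with adipsin (Cfd) moving most. The 4 markers did not move as 1. In HFD vs LFD 3 were called higher (differences of -0.04 to 5.99), and in HFD MTX50 vs HFD 1 was called lower and 1 higher (-5.3 to 0.88). The hepatocyte means were 6.20 to 6.41 in LFD, 6.43 to 6.65 in LFD MTX50, 5.89 to 6.01 in HFD and 5.82 to 6.39 in HFD MTX50, and did not overlap in LFD MTX50 vs LFD or in HFD vs LFD. The 6 Kupffer cell markers had means of -0.04 to 0.43 in HFD and 0.38 to 1.45 in HFD MTX50 (4 higher at an unadjusted p below 0.05, 0 after adjustment), and these groups overlapped. Endothelial markers were at 0.86 to 1.17 in LFD and 1.22 to 1.70 in LFD MTX50, and enterocyte markers at -1.91 to -1.66 in HFD and -2.39 to -1.92 in HFD MTX50. Means of the stellate, cholangiocyte, lymphocyte and pancreatic acinar lists overlapped in each comparison. The part of these markers in the results below was not tested.

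The promoters of carboxylesterases that fell after methotrexate are shown beside that of Ces1c, which was not lower after the drug on either diet, so that their letters can be compared. They come from RefSeq (build GRCm38.p6), which gives a promoter of 300 bases, from 250 before to 50 after the start, for 7 of the 10 genes. Ces1d, Ces1f and Ces3a are not among them. Each runs 5′ to 3′ on the strand of the gene, and capitals mark matches to 6 short motifs on either strand.
Ces2c, chr8:104846818-104847117, plus strand: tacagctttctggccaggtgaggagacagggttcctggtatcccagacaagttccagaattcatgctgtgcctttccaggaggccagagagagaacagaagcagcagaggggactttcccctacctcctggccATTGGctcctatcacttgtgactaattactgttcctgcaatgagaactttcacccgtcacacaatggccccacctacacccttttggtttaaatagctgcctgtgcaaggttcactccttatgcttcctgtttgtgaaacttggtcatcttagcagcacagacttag
Ces2e, chr8:104926010-104926309, plus strand: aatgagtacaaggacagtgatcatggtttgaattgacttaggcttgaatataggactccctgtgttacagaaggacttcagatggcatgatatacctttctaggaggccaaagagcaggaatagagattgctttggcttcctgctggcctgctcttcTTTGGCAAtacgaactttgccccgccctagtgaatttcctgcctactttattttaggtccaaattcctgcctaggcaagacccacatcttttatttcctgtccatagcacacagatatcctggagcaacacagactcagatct
Ces3b, chr8:105083505-105083804, plus strand: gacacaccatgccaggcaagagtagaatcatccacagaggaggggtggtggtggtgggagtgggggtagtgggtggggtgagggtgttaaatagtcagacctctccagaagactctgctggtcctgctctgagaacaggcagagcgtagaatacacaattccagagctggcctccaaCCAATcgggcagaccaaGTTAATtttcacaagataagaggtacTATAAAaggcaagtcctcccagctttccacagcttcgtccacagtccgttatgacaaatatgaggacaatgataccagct
Ces1c, chr8:93131234-93131533, minus strand: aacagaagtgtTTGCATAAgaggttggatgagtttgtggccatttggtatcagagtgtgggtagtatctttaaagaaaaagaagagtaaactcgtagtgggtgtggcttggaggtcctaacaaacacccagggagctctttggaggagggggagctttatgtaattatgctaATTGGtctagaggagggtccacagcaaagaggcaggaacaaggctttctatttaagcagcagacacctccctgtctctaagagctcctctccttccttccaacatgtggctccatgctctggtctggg

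The motifs searched were the nuclear receptor half-sites AGGTCA and AGTTCA, the HNF1 half-site GTTAAT, the C/EBP site TTGCNNAA, the TATA box TATAAA and the CCAAT box CCAAT, where N is any base. AGGTCA was found in 1 of the 7 promoters (Ces2a) and in 16.3% of 32851 promoters of that length, and AGTTCA in 0 of 7 and in 14% of them. GTTAAT was found in Ces3b alone of the 7 and in 7.10% of all promoters. TTGCNNAA was found in Ces1c, Ces2a and Ces2e and in 10.8% of all. TATAAA was found in Ces1g and Ces3b and in 13.6% of all, and CCAAT in Ces1c, Ces1g, Ces2a, Ces2c and Ces3b and in 37.4% of all. The promoter of Ces1e held none of these letters. No motif was shared by the 4 genes with a promoter that fell in LFD MTX50 (Ces1e, Ces2c, Ces2e and Ces3b). A match describes the letters only.

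In LFD MTX50 vs LFD, 6 of the 10 carboxylesterases were lower and 0 higher. Drug and slide cannot be told apart in this comparison. Ces1e, Ces1f, Ces2c, Ces2e, Ces3a and Ces3b fell by 2.07 to 4.64-fold, and in each of them the 5 LFD MTX50 livers lay below all 4 LFD livers. Over all 19602 genes tested, 10.5% were lower and 17.6% higher in this comparison at the same threshold. How many of all genes had groups apart in this way was not counted. In each single LFD MTX50 mouse, 27.4 to 30.6% of all genes lay below every LFD mouse. The median log2 difference of the 10 genes was -1.06, against 0.10 over all genes. Ces1c, Ces1d, Ces1g and Ces2a did not pass the test. The only rise at an unadjusted p below 0.05, which 26.4% of all genes showed, was that of Ces1c, which also counted as changed by the methods' t-test after Benjamini-Hochberg adjustment, with quantile normalization and with only the 2 groups compared.

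Ces1f, a relative of the liver triacylglycerol hydrolase, had the largest difference of the 10 genes on their brightest probes. Its level was 4.82, 4.63, 4.59 and 4.33 in the LFD mice. In LFD MTX50 mice 1 to 5 it was 2.67, 2.91, 2.74, 3.02 and 0.56. The fifth mouse, alone on its slide, lay far below the rest, and each treated mouse lay below the LFD range. The difference was -2.21 ± 0.56 (adjusted p = 0.0108, exact permutation p = 0.00794, the smallest that 4 against 5 mice allow), and -1.76 without that mouse (adjusted p = 0.0189).

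Ces1e, or egasyn, which holds beta-glucuronidase in the endoplasmic reticulum, was at 3.38, 2.76, 3.43 and 2.93 in LFD and at 2.11, 1.70, 2.03, 1.76 and 0.73 in LFD MTX50. Here too the groups were apart and mouse 5 was lowest. The difference was -1.46 ± 0.38 (adjusted p = 0.0126, exact permutation p = 0.00794).

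Ces2e belongs to the second subfamily. Its level was 4.35, 4.55, 4.63 and 4.26 in LFD and 2.49, 2.79, 1.60, 2.80 and 2.78 in LFD MTX50. The lowest treated liver was that of mouse 3 and not of mouse 5, and the groups were separated by more than the range of the LFD mice. The difference of -1.95 ± 0.30 was a 3.87-fold fall (adjusted p = 0.00117), and the second Ces2e probe gave -2.0 ± 0.32 (adjusted p = 0.00137). That second probe is dimmer, and with another background correction (normexp) its difference shrank to -0.16 (adjusted p = 0.864).

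Ces2c, a lipase and drug hydrolase of liver and intestine, was at 2.46, 2.66, 2.67 and 2.56 in LFD and at 1.57, 1.82, 1.34, 1.84 and 1.12 in LFD MTX50 on its brightest probe. The LFD mice spanned a narrow range and every treated mouse was below it. This difference was -1.05 ± 0.23 (adjusted p = 0.00565), the smallest of the 6 falls on the brightest probes. The other Ces2c probes, given below, differed by -2.38 and -4.31, more than Ces1f, so this order depends on the probe.

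Ces3a and Ces3b, neighboring genes expressed mainly in liver, fell as well. Ces3a was at 6.72, 6.68, 6.45 and 6.82 in LFD and at 5.81, 5.53, 5.83, 6.17 and 4.65 in LFD MTX50, a difference of -1.07 ± 0.28 (adjusted p = 0.0123). Ces3b was at 3.16, 3.19, 3.08 and 3.36 in LFD and at 2.02, 1.77, 2.13, 2.42 and 0.82 in LFD MTX50, a difference of -1.37 ± 0.32 (adjusted p = 0.00721). In both genes mouse 4 was the highest and mouse 5 the lowest of the treated mice, and neither group reached into the other.

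The 4 remaining genes did not pass the test on the low fat diet. Ces1c, the carboxylesterase that mouse liver secretes into plasma, was at 5.58, 5.35, 5.38 and 5.24 in LFD and at 5.91, 5.75, 5.99, 5.76 and 5.82 in LFD MTX50. Every treated liver was above every LFD liver (exact permutation p = 0.00794), while the model gave 0.46 ± 0.18 (adjusted p = 0.0626). Ces1d, the triacylglycerol hydrolase that supplies lipid for VLDL, gave 0.26 ± 0.19 (adjusted p = 0.301). Ces1g, another hydrolase that limits VLDL output, gave -0.16 ± 0.25 (adjusted p = 0.647). Ces2a, a diacylglycerol and drug hydrolase, gave -0.35 ± 0.25 (adjusted p = 0.302). In Ces1d, Ces1g and Ces2a the groups overlapped.

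No slide held both LFD and LFD MTX50 mice, so drug and slide cannot be told apart in any of these falls. A random block cannot remove a slide difference that goes with the groups. With the slide as a random block, 1 of the 10 genes was called, Ces2e at -1.91 (adjusted p = 0.0468), where 0.694% of all genes were lower. The other falls kept differences of -1.10 (Ces2c) to -2.46 (Ces1f) with adjusted p of 0.0565 to 0.0894.

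**Figure D1:**
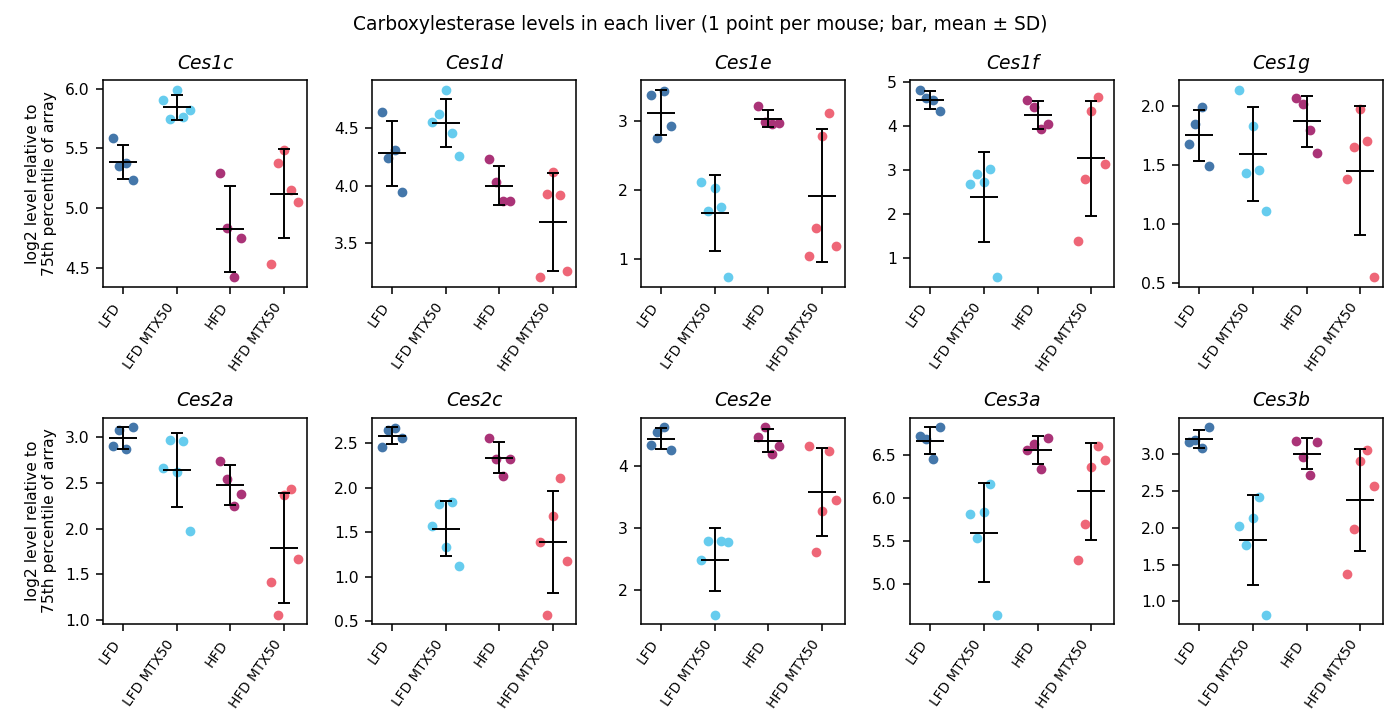
Log2 level relative to the 75th percentile of the array (y axis) of the 10 carboxylesterases in the 4 groups (x axis), 1 point per mouse, with bars for mean ± SD (n = 4 or 5). In Ces1e, Ces1f, Ces2c, Ces2e, Ces3a and Ces3b every LFD MTX50 mouse lies below every LFD mouse, while Ces1c lies above, and the HFD MTX50 mice spread widely.

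The 3 probes of Ces2c differed in the size of the fall. On the second probe the level was 1.92, 2.06, 2.31 and 1.91 in LFD and -0.31, 0.03, -0.93, 0.22 and -0.62 in LFD MTX50, a difference of -2.38 ± 0.32 (5.19-fold, adjusted p = 0.000510). The third probe was at 1.43, 1.54, 1.54 and 1.40 in LFD and at -2.74, -2.89, -3.01, -1.48 and -4.02 in LFD MTX50, a difference of -4.31 ± 0.61 (19.8-fold, adjusted p = 0.000723). All 3 probes fell and none of their groups overlapped, but the fold ran from 2.07 to 19.8. Ces2b, the gene next to Ces2c and not among the 10, was at 0.85, 0.89, 1.34 and 0.79 in LFD and at -2.72, -2.73, -2.80, -1.69 and -3.34 in LFD MTX50. Its difference was -3.62 ± 0.51 (12.3-fold, adjusted p = 0.000719). Over the 18 mice the Ces2b probe followed the third Ces2c probe at Pearson r = 0.99 (Spearman rho = 0.99, r = 0.98 after removal of the group means) and the brightest at r = 0.85 (rho = 0.87, r = 0.85 within groups). These are descriptions over mice that share groups and slides, and whether a probe binds both transcripts was not tested.

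**Figure D2:**
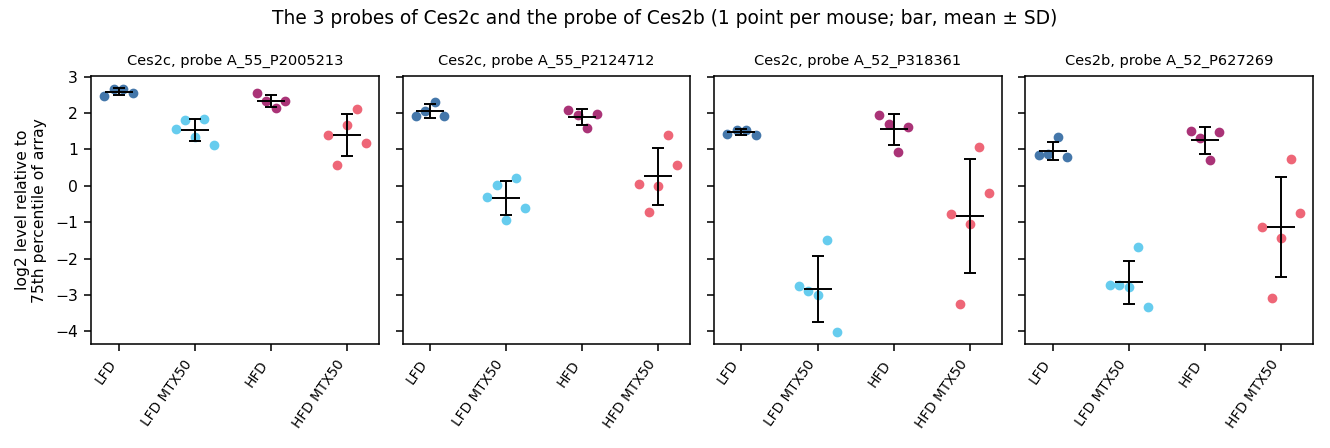
Log2 level relative to the 75th percentile of the array (y axis, shared) on the 3 probes of Ces2c and the probe of Ces2b in the 4 groups, 1 point per mouse, with bars for mean ± SD (n = 4 or 5). The LFD MTX50 mice are below the LFD mice on each probe, by 1.05 on the log2 scale on the first and by 4.31 on the third.

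On the high fat diet, methotrexate lowered 1 of the 10 genes, Ces2c, and raised 0 (0 also at an unadjusted p below 0.05 and by the methods' t-test, which called 0 genes lower too). Over all genes 6.13% were lower and 4.83% higher, so 1 of 10 is near that share. The median difference of the 10 genes was -0.66, against -0.04 over all genes. At an unadjusted p below 0.05, 4 of the 10 genes were lower (Ces1e, Ces2a, Ces2c and Ces2e), beside 17.7% of all genes. Treated mice differed from each other far more than untreated mice.

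Ces2c was at 2.56, 2.33, 2.13 and 2.33 in HFD and at 1.39, 0.57, 1.68, 2.12 and 1.18 in HFD MTX50. The highest treated mouse, mouse 4, was just below the lowest HFD mouse, and the groups did not overlap. The difference was -0.95 ± 0.23, a 1.93-fold fall (adjusted p = 0.0207, exact permutation p = 0.0159). It was not called without HFD mouse 3 or 4 (adjusted p up to 0.0680), nor with the slide as a fixed block (-1.25, adjusted p = 0.120), where fewer arrays carry the comparison. On its other probes Ces2c gave -1.64 ± 0.32 (adjusted p = 0.00916) and -2.39 ± 0.61 (adjusted p = 0.0247), and Ces2b gave -2.38 ± 0.51 (adjusted p = 0.0135). On the third Ces2c probe and on Ces2b the groups overlapped, since HFD MTX50 mouse 4 lay above HFD mouse 3 (1.07 and 0.94, 0.74 and 0.70). These 3 calls were lost in 4, 5 and 4 of 15 other settings, in that order. That of the third probe was also lost in 3 of 18 fits without 1 mouse, and that of Ces2b in 1.

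Ces1e was at 3.22, 2.98, 2.95 and 2.98 in HFD and at 1.04, 1.45, 2.78, 3.12 and 1.18 in HFD MTX50. Mice 3 and 4 stood near or within the HFD range and mice 1, 2 and 5 more than 1 below it. The mean difference was -1.12 ± 0.38 (adjusted p = 0.0653). For Ces1f the values were 4.59, 4.42, 3.92 and 4.05 in HFD and 1.38, 2.79, 4.34, 4.66 and 3.14 in HFD MTX50. The same mice, 3 and 4, were high, and the difference of -0.98 ± 0.56 did not pass (adjusted p = 0.238).

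Ces2e was at 4.48, 4.63, 4.21 and 4.33 in HFD and at 4.32, 2.61, 3.29, 4.25 and 3.45 in HFD MTX50. Mice 1 and 4 were within the HFD range and mice 2, 3 and 5 below it. The difference was -0.83 ± 0.30 on this probe (adjusted p = 0.0804) and -1.18 ± 0.32 on the second (adjusted p = 0.0315). The call on the second, dimmer probe was lost in 8 of 15 other settings, and in 1 more its sign turned. It was also lost in 5 of 18 fits without 1 mouse.

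Ces2a was at 2.74, 2.54, 2.25 and 2.37 in HFD and at 1.42, 1.06, 2.37, 2.43 and 1.67 in HFD MTX50, a difference of -0.69 ± 0.25 (adjusted p = 0.0823). Mice 3 and 4 were again in the HFD range. Ces3a gave -0.48 ± 0.28 (adjusted p = 0.245) and Ces3b -0.62 ± 0.32 (adjusted p = 0.188). Ces1c gave 0.30 ± 0.18 (adjusted p = 0.263), Ces1d -0.32 ± 0.19 (adjusted p = 0.265) and Ces1g -0.42 ± 0.25 (adjusted p = 0.253). Of Ces1c, Ces1d, Ces1g, Ces3a and Ces3b, 0 passed, and their groups overlapped.

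Set against the mean of the HFD mice, the median over the 10 genes was -1.0 in HFD MTX50 mouse 1, -1.22 in mouse 2, -0.10 in mouse 3, 0.00 in mouse 4 and -0.88 in mouse 5. Mouse 4 had 1 of the 10 genes below every HFD mouse and mouse 3 had 3, while mice 1, 2 and 5 had 8, 7 and 8. In LFD MTX50 the same medians were -0.93, -0.95, -0.95, -0.63 and -1.56, with 7 or 8 genes below every LFD mouse in each. Over all genes, 27.4 to 30.6% lay below every LFD mouse in each LFD MTX50 mouse. The share below every HFD mouse was 30.3%, 29.8%, 33.5%, 34.7% and 40.2% in HFD MTX50 mice 1 to 5. In HFD MTX50 mice 3 and 4 the carboxylesterases were thus low no more often than genes at large, and in each of the other treated mice they were low more often, without a test. The SD of a gene was larger in HFD MTX50 than in HFD for 10 of the 10 genes, where 76.0% of all genes showed this, and larger in LFD MTX50 than in LFD for 8 of 10, where 72.6% did.

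Slide 5 allowed a comparison within a slide. HFD MTX50 mice 1 and 2 against HFD mice 3 and 4 gave 6 lower genes of 10 with the variance taken from all arrays split by group and slide, where 3.45% of all genes were lower. Ces1e was at -1.72 (adjusted p = 0.0375), Ces1f at -1.90 (adjusted p = 0.0219), Ces2a at -1.07 (adjusted p = 0.0154), Ces2c at -1.25 (adjusted p = 0.0213), Ces3a at -1.03 (adjusted p = 0.0114) and Ces3b at -1.26 (adjusted p = 0.0101). Ces2e, at -0.80 (adjusted p = 0.323), was not called there. HFD MTX50 mice 3 to 5 are not in this comparison, which sets 2 mice against 2, and of them mice 3 and 4 stood near the HFD level. With the slide as a random block 3 of the 10 genes were lower, Ces1e at -1.31 (adjusted p = 0.0466), Ces2a at -0.82 (adjusted p = 0.0427) and Ces2c at -1.05 (adjusted p = 0.0171), beside 4.99% of all genes.

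**Figure D3:**
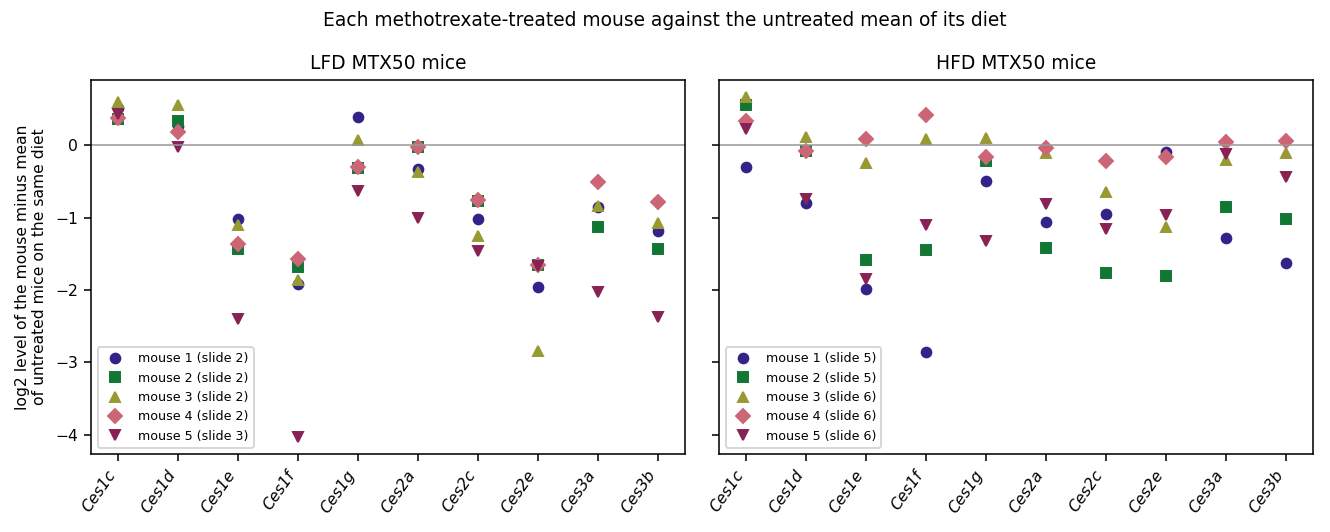
Log2 level of each methotrexate-treated mouse minus the mean of the untreated mice on the same diet (y axis) for the 10 carboxylesterases (x axis), with 1 symbol per mouse and the slide of its array in the legend. LFD MTX50 mouse 5 is lowest in 8 of the 10 genes, and HFD MTX50 mouse 4 stays between -0.22 and 0.42.

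In HFD vs LFD, both without drug, 1 of the 10 genes was lower and 0 were higher (0 also at an unadjusted p below 0.05 and by the methods' t-test). No slide held both LFD and HFD mice, so diet and slide cannot be told apart in this comparison. Over all genes 10.4% were lower and 18% higher in HFD than in LFD, so 1 of 10 is near that share. Ces1c was at 5.58, 5.35, 5.38 and 5.24 in LFD and at 5.29, 4.83, 4.42 and 4.75 in HFD. HFD mouse 1 reached into the LFD range and mice 2, 3 and 4 were below it. The difference was -0.57 ± 0.19, a 1.48-fold fall (adjusted p = 0.0346, exact permutation p = 0.0571). This call was lost when LFD mouse 1, 2 or 3 or HFD mouse 2, 3 or 4 was left out (adjusted p up to 0.13), with normexp correction or quantile normalization, with the random block (-0.54, adjusted p = 0.167) and in the methods' t-test.

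Ces2a was lower in all 4 HFD mice than in any LFD mouse, whose values were 2.90, 3.07, 2.86 and 3.1 (exact permutation p = 0.0286, the smallest for 4 against 4), but the model gave -0.51 ± 0.27 (adjusted p = 0.153). Ces2a was called by the methods' t-test after Benjamini-Hochberg adjustment and with only the 2 groups compared. The other 8 genes lay between -0.35 (Ces1f) and 0.12 (Ces1g) with adjusted p of 0.289 to 0.944, and their groups overlapped. The median of the 10 genes was -0.23, against 0.08 over all genes.

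**Figure D4:**
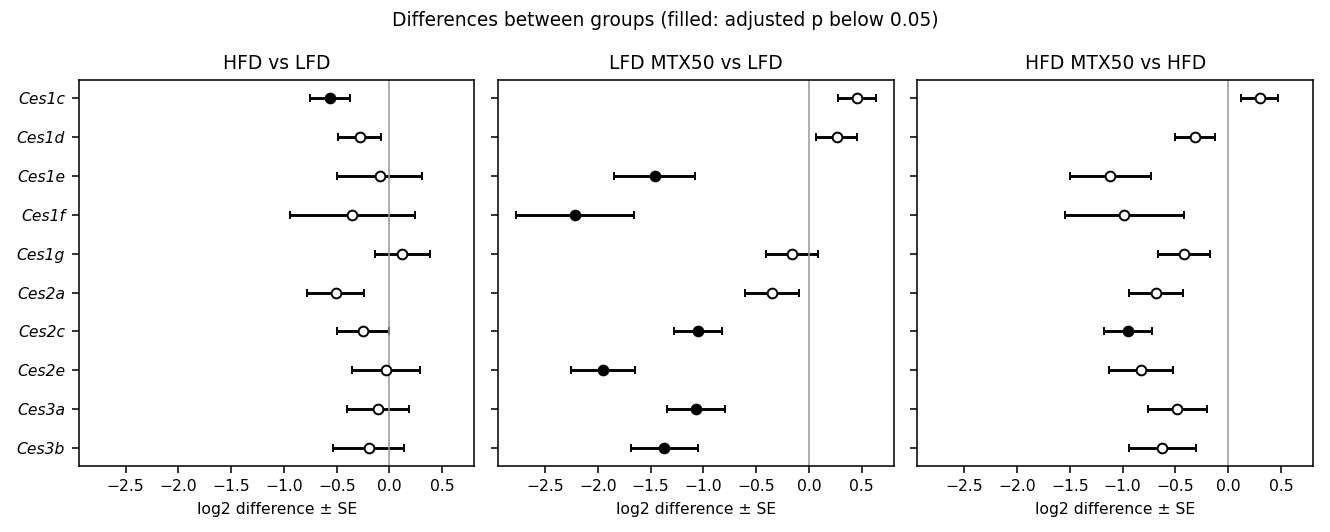
Log2 differences ± SE (x axis) of the 10 carboxylesterases (rows) in HFD vs LFD, LFD MTX50 vs LFD and HFD MTX50 vs HFD, with filled points for an adjusted p below 0.05. Filled points number 1, 6 and 1, and lie to the left of 0.

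A call on 1 diet and none on the other does not show that the diets differ, so the difference between the treatment effects was tested itself. No slide held mice of both diets, so this test cannot separate diet from slide. In limma 0 of the 10 genes differed between the diets in their response, against 8.66% of all genes with a higher and 18.1% with a lower value on the high fat diet. At an unadjusted p below 0.05 there were 2, 1 in each direction, beside 14.3% of all genes with a higher and 26.3% with a lower value. The effect on Ces2e was less negative by 1.13 ± 0.43 (adjusted p = 0.0589), and that on Ces1d more negative by 0.58 ± 0.27 (adjusted p = 0.114). Scaled to the median of probes above background, the Ces2e value counted as changed, and with quantile normalization that of Ces1d did. Other genes lay between -0.34 (Ces2a) and 1.23 ± 0.79 (Ces1f, adjusted p = 0.249), so a diet difference in these responses was not detectable with this spread.

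Of 9 other carboxylesterase genes listed, 8 were on the array and 7 had a kept probe. Ces2h was above background on 0 arrays, and Ces1h was not analysed here. Ces1b gave 0.46 ± 0.19 in LFD MTX50 vs LFD (adjusted p = 0.0827) and -0.37 ± 0.20 in HFD vs LFD (adjusted p = 0.169). Its probe followed that of its neighbor Ces1c over the 18 mice at r = 0.95 (rho = 0.93, r = 0.96 within groups), and the same limit of near-identical copies applies. Ces1a was higher in HFD than in LFD (1.13 ± 0.29, adjusted p = 0.0123), but its probe was dim and in LFD mouse 4 not well above background. Ces4a was higher in HFD (0.47 ± 0.10, adjusted p = 0.00601) and in LFD MTX50 (0.29 ± 0.10, adjusted p = 0.0337). The latter call was lost in 7 of 18 fits without 1 mouse and in 4 of 13 other settings. Ces2f was higher in LFD MTX50 (0.66 ± 0.19, adjusted p = 0.0191), a call lost in 2 of 18 such fits and in 5 of 13 other settings.

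Ces5a was higher in HFD on both of its probes (0.66 ± 0.16, adjusted p = 0.00860, and 0.94 ± 0.28, adjusted p = 0.0230), but the probes disagreed on methotrexate. The brighter gave -0.19 ± 0.15 on the low fat diet (adjusted p = 0.327) and -0.57 ± 0.15 on the high fat diet (adjusted p = 0.0258). That high fat call was lost in 2 of 18 fits without 1 mouse and in 7 of 15 other settings. The dimmer gave 0.87 ± 0.27 (adjusted p = 0.0247) and -0.30 ± 0.27 (adjusted p = 0.453). Calls on the dimmer probe were lost in 5 of 18 such fits in LFD MTX50 vs LFD and in 4 of 18 in HFD vs LFD. Each was also lost in 5 of 13 other settings. Ces2g was at -3.44 in LFD mouse 1 and at -0.20, -0.17 and -0.19 in the other LFD mice. Its difference in LFD MTX50 was 0.07 ± 0.49 (adjusted p = 0.924) with that mouse and -0.74 without it (adjusted p = 0.0124).

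Genes with related work were read for comparison. Another list held 18 lipid ester hydrolases and 2 regulators of them, the inhibitor G0s2 and the lipase coactivator Abhd5. Of the 18 hydrolases, 6 were lower and 1 higher in LFD MTX50 vs LFD, and both regulators were lower. G0s2 was at -1.80 ± 0.49 (adjusted p = 0.0146), Abhd6, a monoacylglycerol hydrolase, at -1.08 ± 0.14 (adjusted p = 0.000413) and Pnpla7, a lysophospholipase, at -0.98 ± 0.26 (adjusted p = 0.0136). In HFD MTX50 vs HFD 3 hydrolases and G0s2 were lower, with G0s2 at -1.93 ± 0.49 (adjusted p = 0.0236) and Aadac, arylacetamide deacetylase, at -0.62 ± 0.16 (adjusted p = 0.0273). The 1 higher there was Pnpla2, adipose triglyceride lipase, at 0.76 ± 0.19 (adjusted p = 0.0226). In HFD vs LFD 1 hydrolase was higher and 1 lower, Pnpla3 at -3.18 ± 0.93 (adjusted p = 0.0203). Pnpla3 was dim and variable in HFD (mean -5.21, SD 1.25), and other settings brought its difference as near to 0 as -0.79. Its call was lost with normexp, with the random block and without LFD mouse 3 or HFD mouse 4.

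Of 12 other drug and toxin hydrolases, 3 were lower and 2 higher in LFD MTX50 vs LFD. Ephx2, soluble epoxide hydrolase, was at -1.18 ± 0.18 (adjusted p = 0.00102) and Cmbl at -0.49 ± 0.18 (adjusted p = 0.0477, a call lost in 12 of 18 fits without 1 mouse), while Ache, acetylcholinesterase, was at 0.61 ± 0.16 (adjusted p = 0.0138). In HFD MTX50 vs HFD 0 were called by limma, and 2 were lower and 0 higher at an unadjusted p below 0.05. In HFD vs LFD 1 was higher and 1 lower, Ache at 0.56 ± 0.17 (adjusted p = 0.0260) and Afmid at -0.69 ± 0.20 (adjusted p = 0.0196). The share of this list that was lower on the low fat diet is 3 of 12 and that of the lipid hydrolases 6 of 18. Beside these stand 6 of the 10 carboxylesterases followed here and 10.5% of all genes. Of the 7 other carboxylesterases with a kept probe, 1 was lower and 2 were higher. The 10 genes and the lists were chosen with earlier results of these data known.

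Several carboxylesterase genes are known targets of CAR and PXR, the nuclear receptors of drug response. Of 16 other target genes kept of 18 listed, 2 were lower and 3 higher in LFD MTX50 vs LFD, with a median of -0.04. Aldh1a7 was at -1.58 ± 0.21 (adjusted p = 0.000507) and Aldh1a1 at -1.40 ± 0.19 (adjusted p = 0.000660), while Slco1a4, an organic anion transporter, was at 1.18 ± 0.17 (adjusted p = 0.000879). In HFD MTX50 vs HFD 1 was higher and 1 lower, Cyp3a13 at 1.08 ± 0.25 (adjusted p = 0.0174) and Aldh1a7 at -0.98 ± 0.21 (adjusted p = 0.0137). In HFD vs LFD 1 was higher and 1 lower, Cyp2b10 at 2.24 ± 0.73 (adjusted p = 0.0322) and Cyp2c29 at -0.60 ± 0.22 (adjusted p = 0.0473), calls lost in 6 and 12 of 18 fits without 1 mouse.

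Of 13 transcription factors with roles in the control of such genes, 2 were higher and 2 lower in LFD MTX50 vs LFD. Nr1i2, which encodes PXR, was among the higher, at 0.53 ± 0.14 (adjusted p = 0.0129), and the other higher factor is not named here. Nr1i3, which encodes CAR, was not called, at 0.95 ± 0.36 (adjusted p = 0.0554). Nfe2l2, the oxidant response factor, was at -0.72 ± 0.24 (adjusted p = 0.0346) and Nr1h3, a liver X receptor, at -0.34 ± 0.12 (adjusted p = 0.0409), calls lost in 7 and 10 of 18 fits without 1 mouse. Hnf4a, the hepatocyte nuclear factor, was higher in HFD MTX50 than in HFD (0.51 ± 0.15, adjusted p = 0.0381) and lower in HFD than in LFD (-0.55 ± 0.16, adjusted p = 0.0178). Also in HFD vs LFD, Nr1h3 was lower (-0.45 ± 0.13, adjusted p = 0.0171) and Rxra, the partner of many nuclear receptors, higher (0.26 ± 0.09, adjusted p = 0.0465, lost in 10 of 18 fits without 1 mouse).

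A list of 11 VLDL assembly and lipid droplet genes showed 3 lower in LFD MTX50 vs LFD. These were Plin2, a lipid droplet protein, at -1.27 ± 0.33 (adjusted p = 0.0124), Sar1b at -0.52 ± 0.10 (adjusted p = 0.00277) and Cideb at -0.46 ± 0.14 (adjusted p = 0.0243). In HFD MTX50 vs HFD the 1 called was Cidec, a lipid droplet protein, at -0.95 ± 0.21 (adjusted p = 0.0139), which was higher in HFD than in LFD (1.32 ± 0.22, adjusted p = 0.00274). Mttp, which loads lipid onto apolipoprotein B, was lower in HFD (-0.55 ± 0.13, adjusted p = 0.00863).

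The genes whose levels over the 18 mice were most like those of Ces2c were Sucnr1 (r = 0.98, rho = 0.97, r = 0.95 within groups), Gstm6 (r = 0.95, rho = 0.95, r = 0.88 within groups) and Sec14l2 (r = 0.94, rho = 0.95, r = 0.81 within groups). For Ces1f, the gene next chosen because it had the largest change among those called once, they were Sult2a8 (r = 0.97, rho = 0.95, r = 0.95 within groups), Zfp580 (r = 0.93, rho = 0.90, r = 0.86 within groups) and Plod1 (r = 0.93, rho = 0.72, r = 0.90 within groups). These mice share slides and groups, and the values only order the genes. Sucnr1, the succinate receptor, differed by -2.25 ± 0.47 in LFD MTX50 vs LFD (adjusted p = 0.00461), and Sult2a8, a liver sulfotransferase, by -1.97 ± 0.48 (adjusted p = 0.00922).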

How the data were processed

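RNA of 18 livers was hybridized to 1-color Agilent arrays. Per the labels, scans were quantified by the authors in Agilent Feature Extraction (10.7.3.1). The deposited values are spot intensity on a linear scale, with the background subtracted and trends within each array removed, and are not scaled between arrays. The series' table of values holds the background-subtracted intensity of the same scans.

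Here each intensity was converted to log2, and the 75th percentile of the array (1203 to 2263 intensity units) was subtracted. Outlier spots (124 to 294 an array) were dropped, 0 were saturated, and repeated spots were averaged. A probe was kept if at least 4 arrays showed it well above background, which 35739 of 39429 probes met (83.9 to 90.6% of probes on an array were above background). Probes were named through RefSeq accessions of GRCm38.p6 (28033 probes, 21157 genes), and coordinates of the array's older build are not used. limma 3.58.1 in R 4.3.3 fitted the 4 groups, p-values were adjusted by Benjamini-Hochberg across every probe kept, and exact 2-sided permutation tests accompany single genes. The fit was tested on simulated data. The number of mice limits the precision.

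The carboxylesterases and the comparison lists were chosen with earlier results of these data known. Named from other lists are at most 3 genes per comparison, by size of change among those called. PXR, CAR, Rxra and further genes mentioned beside them were chosen after their values were seen. The most alike genes are the 3 with the highest Pearson r for up to 2 carboxylesterases called most often, ties broken by size of change. Same-numbered mice of different groups did not deviate together (correlations -0.31 to 0.25), so numbers pair no samples. No label says that mice came from separate experiments, and p-values measure the spread between these mice.

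Tried beside this were models with the replicate number or the slide (random or fixed) as a block, the omission of single arrays, a fit of 2 groups at a time, robust variances with an intensity trend, and the t-test that the methods use for other measurements, adjusted or at p up to 0.015. Values were also rescaled by quantiles or by the median of detected probes, corrected by normexp (offset 50) or taken from the series' table. Further, dim probes and outlier spots were retained, probes detected on fewer than all arrays were removed, and probes of a gene were averaged. Normexp used the median spot signal, since these files lack the mean, and that and the split of groups by slide were chosen after seeing the data.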

Additional observations from a re-analysis of the deposited data

Results flagged for a closer look

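Of 84 sets of 4 or 5 mice examined for the carboxylesterase probes, 6 held a mouse whose gap to its nearest neighbor took an unusually large share of the range of its group. Chance gives this in about 1 of 20 groups. The share was 0.879 for Ces1e in HFD mouse 1 (highest, 3.22), 0.858 for Ces1f in LFD MTX50 mouse 5 (lowest, 0.56) and 0.747 for Ces2e in LFD MTX50 mouse 3 (lowest, 1.60). It was 0.830 for Ces2b in LFD mouse 3 (highest, 1.34), 0.990 for Ces2g in LFD mouse 1 (lowest, -3.44) and 0.875 for Ces5a in HFD MTX50 mouse 5 (lowest, -1.70).

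In the model of 4 groups, the effect of methotrexate differed between the diets at an adjusted p below 0.05 for several genes outside the 10. No slide held mice of both diets, so diet and slide cannot be told apart here. As the value on the high fat diet minus that on the low fat diet, it was -0.50 ± 0.14 for Ces4a (adjusted p = 0.0159) and -1.18 ± 0.38 for the dimmer Ces5a probe (adjusted p = 0.0311). Among lipid hydrolases and their regulators the difference was 1.04 for Abhd5, 0.88 for Pnpla2 and 0.73 for Abhd6, and 1 went the other way, Lipe at -0.65 ± 0.18 (adjusted p = 0.0188). Among the other hydrolases it was 0.88 for Ephx2 and -0.68 for Ache. It was -1.38 for Slco1a4 and 0.90 for Aldh1a1 among CAR and PXR targets, and 0.55 for Nr1h3 among the factors. Among the VLDL assembly and lipid droplet genes it was -1.44 for Cidec and 1.02 for Tm6sf2.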

How the results depend on the processing

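Leaving out 1 mouse at a time, carboxylesterases called ranged from 6 to 7 in LFD MTX50 vs LFD, from 0 to 1 in HFD vs LFD, from 0 to 3 in HFD MTX50 vs HFD, and from 0 to 1 for the difference between treatment effects. In HFD vs LFD the count of 1 became 0 with normexp correction, quantile normalization, the slide as a random block and the replicate block, and 2 (Ces1c and Ces2a) with only the 2 groups compared. In HFD MTX50 vs HFD the count of 1 became 0 with normexp, with only the 2 groups compared, in the methods' t-test with adjustment or at p up to 0.015, and with the slide as a fixed block. It became 2 with the mean of a gene's probes, 3 with quantile normalization and with the random block, and 6 on the shared slide. In LFD MTX50 vs LFD the random block left 1 (Ces2e). The difference between treatment effects gave 1 instead of 0 with quantile normalization (Ces1d) and with median scaling (Ces2e). The replicate block changed no other count of carboxylesterases, and the mice share only a number.

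Normexp moved the median of all genes by 0.30, 0.36 and 0.43 in HFD vs LFD, LFD MTX50 vs LFD and HFD MTX50 vs HFD, and quantile normalization by -0.11 in LFD MTX50 vs LFD and 0.12 in the difference between treatment effects, where median scaling moved it by 0.14.

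The sign turned for values that the model of all 4 groups did not call, with 1 exception given last. In HFD vs LFD, Ces1g was at -0.12 with normexp, and quantile normalization gave 0.065 for Ces1e, 0.23 for Ces2e and 0.10 for Ces3a. Ces1e was at 0.071 in the series' table and 0.040 with the random block, which gave 0.0067 for Ces3a. In LFD MTX50 vs LFD, Ces1g was at 0.017 with the replicate block and Ces2g at -0.027 with median scaling. The Ces2c difference between treatment effects was -0.064 with quantile normalization. Leaving out 1 mouse gave -0.21 to 0.011 for Ces1e, -0.11 to 0.034 for Ces2e and -0.27 to 0.82 for Ces2g in HFD vs LFD, -0.74 to 0.35 for Ces2g in LFD MTX50 vs LFD, and -0.082 to 0.30 for Ces2c in the difference between treatment effects. The second Ces2e probe, called in HFD MTX50 vs HFD, turned to 0.24 with normexp. The cause was not tested.

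Of the values of the 10 genes, 294 of 320 kept direction and side of the threshold in HFD vs LFD, 308 of 320 in LFD MTX50 vs LFD, 317 of 340 in HFD MTX50 vs HFD and 284 of 290 in the difference. Of the genes outside the family, calls lost in 5 or more of the 18 fits without 1 mouse were those of Cyp2b10 (6), Cyp2c29 (12) and Rxra (10) in HFD vs LFD, Cmbl (12), Nfe2l2 (7) and Nr1h3 (10) in LFD MTX50 vs LFD, Hnf4a (5) in HFD MTX50 vs HFD, and Ache (10) and Tm6sf2 (11) in the difference. Of 14 other settings, Cyp2c29 was lost in 8, Rxra, Cmbl, Nfe2l2 and Cideb in 6 each, and Nr1h3 in LFD MTX50 in 5. Abhd5, Ache and the VLDL assembly gene Mia2 in HFD vs LFD were lost in 5 of 14 as well. Of the calls in HFD vs LFD followed outside the family, the random block kept only that of Cidec. In LFD MTX50 vs LFD the random block lost those of G0s2, Pnpla7, Ache, Cmbl, Nfe2l2, Nr1i2, Nr1h3, Plin2, Sar1b and Cideb. In HFD MTX50 vs HFD, Hnf4a was lost in 9 of 16 and G0s2 and Aadac in 5 each. The fixed block, where fewer arrays carry the comparison, lost every call followed there outside the family, while the random block kept each. In the difference, Ache was lost in 7 of 11 and Nr1h3 in 5. The number of mice and the slides limit precision.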
